A study of Mus musculus with 4 samples.

Results

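The genes described here encode the secreted and membrane-anchored ligands of the ErbB receptors, and they were chosen by name as 10 of the 52636 genes in the table, namely *Areg*, *Egf*, *Hbegf*, *Tgfa*, *Ereg*, *Btc*, *Epgn*, *Nrg1*, *Nrg2* and *Nrg4*. All 10 had at least 1 UMI (unique molecular identifier, which stands for 1 captured mRNA molecule) in the 32439 cells of the table, which were sorted as luminal from the mouse mammary gland. 6 of them, *Areg*, *Hbegf*, *Btc*, *Nrg4*, *Tgfa* and *Epgn*, had 100 or more UMIs and are described in full, while *Nrg2*, *Egf*, *Nrg1* and *Ereg* had 49, 27, 16 and 2 UMIs.

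The control (WT) sample was *Erbb3* +/+;MMTV-Cre and the mutant (V943R) sample was *Erbb3* V943R/V943R;MMTV-Cre, both of C57BL/6N mice at 6 weeks of age, in the middle of pubertal duct growth. In the mutant, recombination by Cre switches *Erbb3* to a form that carries arginine in place of a valine of the kinase domain, through which ERBB3 activates its partner receptor. Cre was driven in both genotypes by the MMTV promoter, which acts in mammary epithelium, so the stroma was not targeted. The thoracic and abdominal glands of 3 mice were pooled for each genotype, and sorted luminal epithelial cells were run on the 10× Chromium platform as 2 libraries per genotype. Each genotype is therefore 1 pool of animals, and no test between genotypes was possible. The libraries are called A and B without any pairing between genotypes, and they held 6849 to 9627 cells and 30019745 to 38009351 UMIs each. A total of 511 cell barcodes occurred in more than 1 library, in 1027 cells. Levels are given in CPM, the UMIs of a gene per 1000000 UMIs of the same cells, and the 95% intervals (exact Poisson for levels, exact binomial for ratios and shares) cover counting error only. As each captured molecule counts as 1 UMI at its 3′ end, levels were not divided by transcript length.

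The ErbB receptors work in pairs that ligands bring together. Amphiregulin, epigen, EGF and TGFα bind EGFR, while HB-EGF, betacellulin and epiregulin bind EGFR and ERBB4. Neuregulins 1 and 2 bind ERBB3 and ERBB4, neuregulin 4 binds ERBB4, and ERBB2 has no ligand of its own and serves as the partner of the others. These ligands are made as membrane proteins and are released by cleavage, for amphiregulin and several others mainly through the protease ADAM17. In the pubertal gland, amphiregulin is the ligand induced by estrogen in hormone-sensing luminal cells, and it acts on EGFR in the surrounding stroma to drive duct growth.

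*Epgn*, *Ereg*, *Areg* and *Btc* are neighbours on chromosome 5. In GRCm38 (GENCODE release M21), *Epgn* lies at chr5:91027464-91035215, *Ereg* at chr5:91074622-91093646 and *Areg* at chr5:91139599-91148432, all on the plus strand, and *Btc* at chr5:91357261-91402994 on the minus strand, so that the locus spans 375.5 kb. The other ligands lie on other chromosomes. *Nrg4* (chr9:55220222-55326844, minus strand) overlaps *Fbxo22* on the opposite strand. The promoters of the 3 members of the locus that were measured at 100 UMIs or more are shown, as *Areg*, *Epgn* and *Btc* share a locus and, like *Tgfa* on chromosome 6, had V943R libraries above both WT libraries over all cells. Each runs from 250 bases before to 50 bases after the start site (RefSeq, GRCm38.p6), 5′ to 3′ on the strand of the gene, with chr5:91139349-91139648 (plus) for *Areg*, chr5:91027267-91027566 (plus) for *Epgn* and chr5:91402945-91403244 (minus) for *Btc*. Capitals mark the cAMP response element TGACGTCA, its shorter form TGACG on either strand (CGTCA when read on the gene's strand), and the TATA motif TATAAA.
Areg promoter: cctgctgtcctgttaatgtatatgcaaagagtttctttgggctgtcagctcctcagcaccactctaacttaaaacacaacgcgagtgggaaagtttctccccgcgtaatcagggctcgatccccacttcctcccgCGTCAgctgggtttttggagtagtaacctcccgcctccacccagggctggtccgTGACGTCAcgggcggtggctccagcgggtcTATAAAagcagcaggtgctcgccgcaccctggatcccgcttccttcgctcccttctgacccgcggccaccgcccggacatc
Epgn promoter: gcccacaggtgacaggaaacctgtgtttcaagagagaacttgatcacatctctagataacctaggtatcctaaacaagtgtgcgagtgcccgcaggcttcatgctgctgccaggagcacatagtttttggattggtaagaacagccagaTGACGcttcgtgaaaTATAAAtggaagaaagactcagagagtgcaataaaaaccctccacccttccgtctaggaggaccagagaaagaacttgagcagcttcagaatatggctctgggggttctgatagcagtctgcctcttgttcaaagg
Btc promoter: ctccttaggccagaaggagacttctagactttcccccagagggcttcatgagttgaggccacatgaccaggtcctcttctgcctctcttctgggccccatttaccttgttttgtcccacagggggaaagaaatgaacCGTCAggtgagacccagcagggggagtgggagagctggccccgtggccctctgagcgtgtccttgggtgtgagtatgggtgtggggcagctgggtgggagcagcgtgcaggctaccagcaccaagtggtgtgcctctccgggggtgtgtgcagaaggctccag
The full element stood 61 bases before the start site of *Areg*, where it holds the shorter form on each strand, and a further shorter form stood at −115 and a TATA motif at −31. The shorter form without the full element stood at −101 in *Epgn*, which also had TATAAA at −86, and at −113 in *Btc*. The RefSeq start site of *Epgn* lies inside the GENCODE span given above. Both *Epgn* motifs are therefore closer to the GENCODE start than these positions say. Of 32851 mouse promoters of the same length, searched on both strands, 1.79% held the full element, 20.8% the shorter form and 13.6% TATAAA. Neither the AP-1 motif TGANTCA (7.81% of promoters) nor the full palindromic estrogen response element (0.07%) was found in these 3 windows, and these letter matches are descriptions and not measured binding. The windows of *Tgfa* and *Nrg4*, of the same length, held none of these motifs. The *Nrg4* window lies within the GENCODE span of that gene and not at its outer end.

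*Areg* accounted for most ligand mRNA. It was the gene of rank 25 by UMIs over all WT cells and of rank 23 over all V943R cells, and it held 96.5% and 96.9% of the UMIs of the 10 ligands. In LP cells its share was lower, at 70.6% in WT and 76.4% in V943R. By library, *Areg* stood at 3153 and 3191 CPM in WT and at 3649 and 3820 CPM in V943R. *Hbegf* followed at 49.6 and 51.5 CPM in WT and 42.7 and 48.7 in V943R, and *Btc* at 39.0 and 39.6 against 43.0 and 49.98. *Nrg4* was measured at 12.97 and 14.7 CPM in WT and 13.2 and 13.7 in V943R. *Tgfa* stood at 7.90 and 8.58 CPM against 10.1 and 8.77, and *Epgn* at 1.25 and 2.58 against 4.43 and 6.42. In WT, the order from *Areg* down to *Epgn* was separated by counting intervals at each step. In V943R, *Hbegf* at 45.8 CPM (44.1 to 47.5) and *Btc* at 46.6 CPM (44.9 to 48.3) could not be told apart.

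The remaining ligands were near the limit of detection. *Nrg2* was seen in 49 cells with 1 UMI each, of which WT libraries A and B had 12 and 11 and the V943R libraries 13 each. Of these, 24 lay in LP cells. *Egf* had 15 WT and 12 V943R UMIs, *Nrg1* had 7 and 9, and *Ereg* had none in WT, with an interval of up to 0.0505 CPM, and 2 in V943R, both in ML cells. *Nrg3*, the neuregulin outside the 10 genes, had no UMI in any cell. The neuregulins that bind ERBB3 were thus detected at no more than 0.417 CPM over all cells of either genotype, and *Nrg2* stood at 1.41 CPM in WT and 1.38 CPM in V943R LP cells.

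The table gives each cell a cluster and a class made by the authors, with luminal progenitors (LP, clusters 1 and 2), luminal intermediate cells (LI, cluster 3) and mature luminal cells (ML, clusters 4 to 11). The classes held 3181, 1143 and 14188 WT cells and 3123, 952 and 9612 V943R cells. The LP markers *Kit* and *Elf5* stood at 219 and 315 CPM in WT LP cells and at 2.68 and 19.7 in ML cells, while the ML markers *Prlr* and *Pgr* stood at 262 and 19.4 CPM in LP and 2125 and 146 in ML cells. Clusters 12 and 13, with 126 WT and 114 V943R cells, were outside the 3 classes and served as comparison cells for low values. They do not hold free RNA alone, since their median *Areg* count in WT was 0 UMIs in each cluster but single cells reached 45 UMIs in cluster 12 and 49 in cluster 13. Since the clusters were made by the authors from the same cells, differences between clusters are descriptions.

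**Figure D1:**
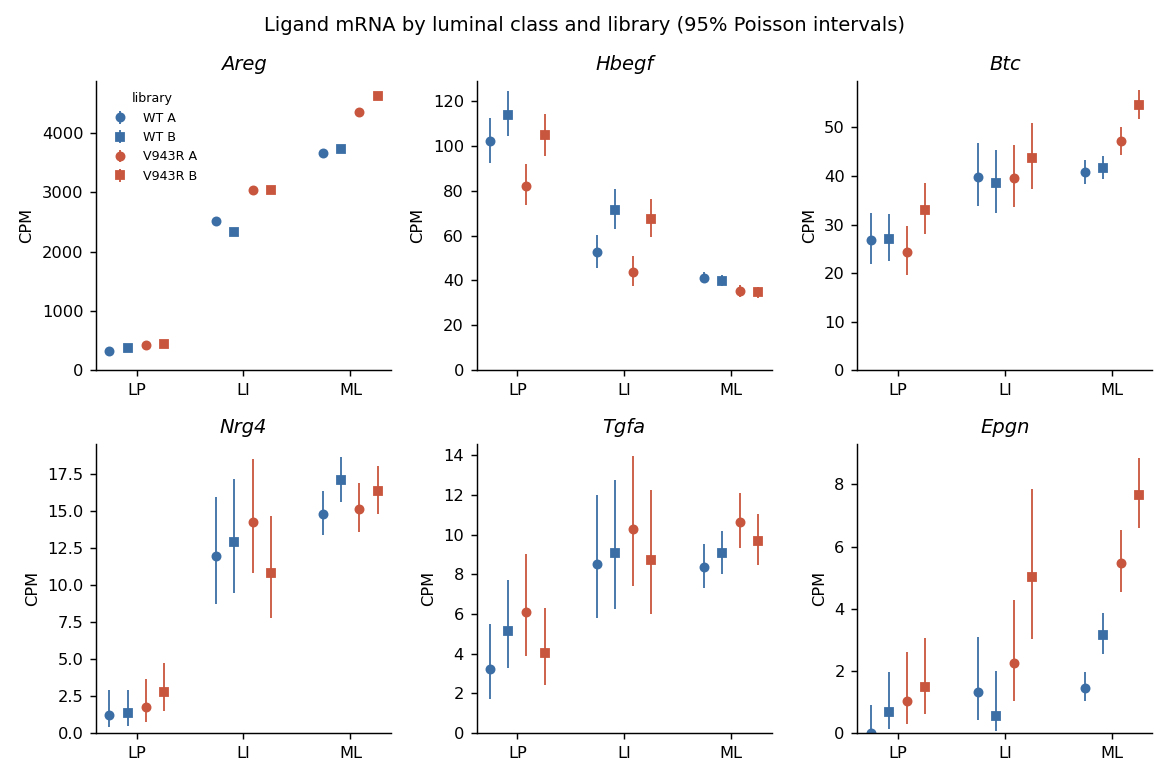
Levels of the 6 measured ligands in CPM (vertical axes, each on its own scale) in LP, LI and ML cells, with 1 point per library and 95% Poisson intervals. Areg, Nrg4 and Epgn were highest in ML cells and Hbegf was highest in LP cells, and in ML cells both V943R points of Areg, Btc and Epgn lay above both WT points.

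*Areg*, the hormone-induced ligand, was concentrated in ML cells. In WT it stood at 343 CPM in LP, 2421 in LI and 3708 in ML cells, which is a 10.8-fold difference between ML and LP (log2 3.43, 3.38 to 3.49), and in V943R at 435, 3047 and 4501 CPM. *Nrg4*, an ERBB4 ligand, had a similar pattern with 1.29, 12.4 and 16.0 CPM in WT, 12.4-fold between ML and LP (log2 3.63, 2.79 to 4.64, and 4.40 with means over cells). In V943R this difference was 6.86-fold (log2 2.78, 2.14 to 3.50). The intervals of the 2 genotypes overlapped, and the LP levels of *Nrg4* came from 11 WT and 20 V943R UMIs. *Epgn* was also higher in ML, with 0.352, 0.946 and 2.32 CPM from 3, 7 and 132 WT UMIs. *Tgfa* stood at 4.23, 8.79 and 8.72 CPM, 2.06-fold between ML and LP, and *Btc* at 26.9, 39.2 and 41.2 CPM, 1.54-fold. *Hbegf*, the heparin-binding member, ran the other way with 108 CPM in LP, 61.9 in LI and 40.6 in ML cells, 2.67-fold higher in LP than in ML.

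The cells of cluster 3, with *Areg* and *Hbegf* both between LP and ML levels, were also rich in high doublet scores, as 49.5% of them ranked in the top 6% of all cells. Their median depth was 5620 UMIs in WT and 6850 in V943R, against 2018 and 2067 in LP cells, and the part of doublets in these levels was not tested. Without the top 6% of cells by doublet score, the log2 ratio of ML over LP in WT was 4.10 for *Areg*. The doublet caller itself called 1 of all cells, and no cells were removed.

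Low values were set beside the cells outside the luminal classes. At 1000 UMIs per cell, *Areg* was found in 15.2% of WT LP cells (13.9% to 16.5%), but also in 22.2% (15.3% to 30.5%) of the WT cells of clusters 12 and 13, so its share in LP was not above that of these cells, while its share of 70.9% in ML was. Without thinning these shares were 28.9% and 31.7%, at median depths of 2018 and 1922 UMIs. Relative to ML, the WT level of *Areg* in LP was 9.26%, that of *Nrg4* 8.06% and that of *Epgn* 15.1%. The 5 ML markers had 12.3% to 23.6% of their ML level in LP, so *Areg* and *Nrg4* lay below the range of the markers and *Epgn* within it. The LP values of *Nrg4* and *Epgn* came from only 11 and 3 WT UMIs. *Tgfa* at 48.5% and *Btc* at 65.2% were above this range. In the other direction, *Hbegf* in ML cells had 37.4% of its LP level, against 0.793% to 6.23% for the 6 LP markers.

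At equal depth, *Hbegf* was found in 8.54% of WT LP cells (7.59% to 9.57%) and 3.44% of WT ML cells (3.15% to 3.76%), and in 1.59% (0.193% to 5.62%) of the WT cells of clusters 12 and 13. Its share in LP was thus above that of the comparison cells, while its share in ML could not be told from it. *Btc* was found in 2.54% of LP and 3.28% of ML cells, and in 2.38% (0.494% to 6.80%) of the comparison cells, so neither share was above theirs. For *Nrg4* the ML share was 1.76% (1.55% to 1.99%), with 0 of the 126 comparison cells (interval up to 2.89%), so this share could not be told from theirs either. *Tgfa* was found in 0.818% of ML cells and in 3.17% (0.872% to 7.93%) of the comparison cells. In cluster 12 its level was 44.6 CPM in WT and 100.3 CPM in V943R, from 5 and 7 UMIs, above the 8.72 and 10.1 CPM of ML cells, so these cells give no background for *Tgfa*.

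**Figure D2:**
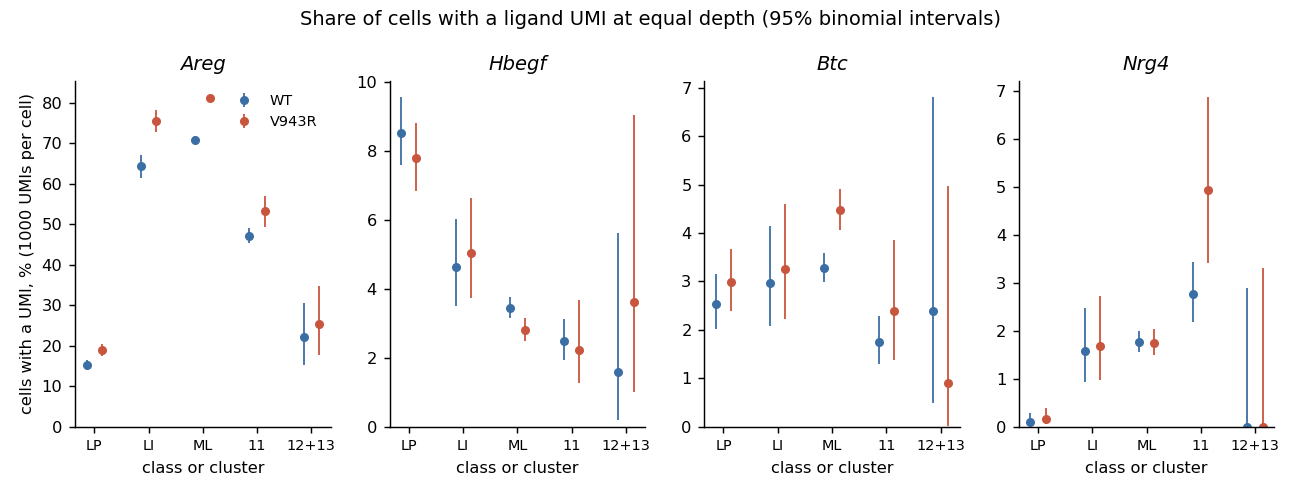
Share of cells with at least 1 UMI of Areg, Hbegf, Btc or Nrg4 (vertical axes in %, each on its own scale) after every cell was thinned to 1000 UMIs, by class or cluster, for WT and V943R with 95% binomial intervals. Areg was found in 70.9% of WT and 81.2% of V943R ML cells, and Nrg4 had its highest share in cluster 11.

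The receptors for these ligands were divided between the classes in another way. *Egfr*, the receptor of *Areg*, *Epgn* and *Tgfa*, stood at 15.7 CPM in WT LP cells and 0.229 in WT ML cells, 68.7-fold lower, from 134 and 13 UMIs. *Erbb4*, which binds *Nrg4*, stood at 8.69 and 0.141 CPM, from 74 and 8 UMIs. *Erbb2* at 35.2 and 41.6 CPM and *Erbb3* at 67.3 and 60.2 CPM were at similar levels in LP and ML. In the clusters of the WT sample, the class with the most *Areg* and *Nrg4* mRNA was thus the class with the least *Egfr* and *Erbb4* mRNA, and *Hbegf* alone among the 6 ligands was highest in the class where *Egfr* was highest. Within LP cells, *Areg* was found at equal depth in 7 of 47 WT cells with an *Egfr* UMI (14.9%, 6.20% to 28.3%) and in 15.2% of the other 3102 cells. For *Hbegf* these shares were 10.6% (3.55% to 23.1%) and 8.51%, so no difference was detectable at this depth.

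**Figure D3:**
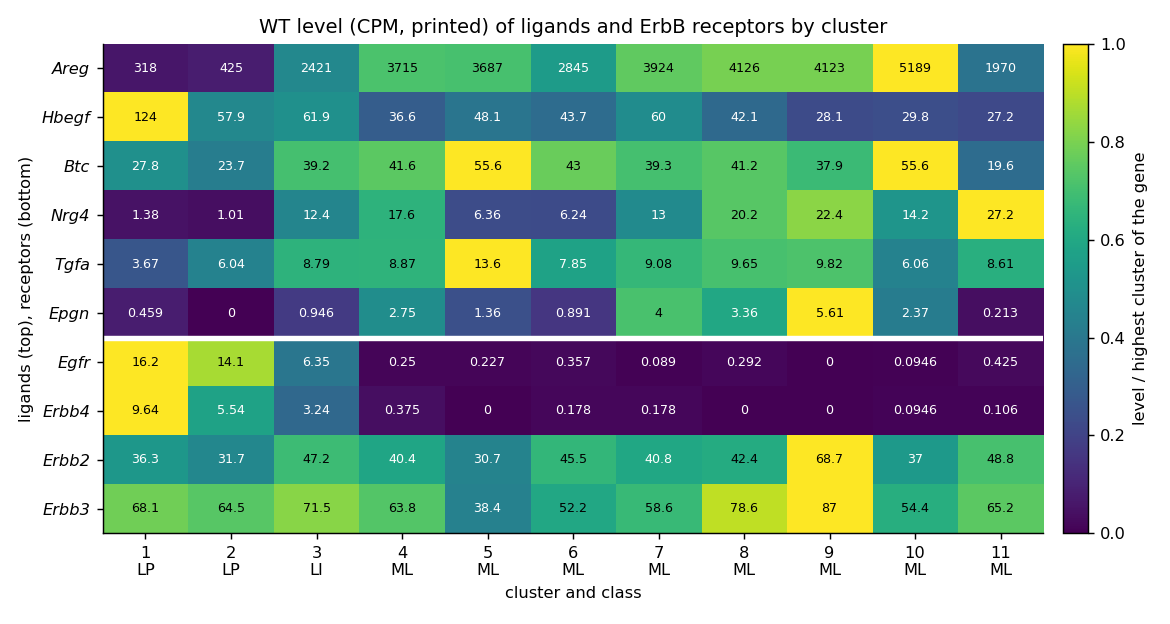
WT level in CPM (printed in each cell) of 6 ligands and the 4 ErbB receptors in clusters 1 to 11, coloured from 0 to 1 relative to the highest cluster of each gene. Areg peaked in cluster 10, Hbegf, Egfr and Erbb4 in cluster 1, and Nrg4 in cluster 11.

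Among the ML clusters the ligands did not peak together. *Areg* was highest in cluster 10 with 5189 CPM in WT and lowest in cluster 11 with 1970 CPM. *Nrg4* had its highest level in that same cluster 11, with 27.2 CPM (24.0 to 30.8) in WT, and was lowest among ML clusters in clusters 5 and 6 with 6.36 and 6.24 CPM. Its level in cluster 9, 22.4 CPM (12.8 to 36.4) from 16 UMIs, could not be told from that of cluster 11. *Btc* was highest in clusters 10 and 5, both with 55.6 CPM, and lowest in cluster 11 with 19.6 CPM. *Tgfa* reached 13.6 CPM in cluster 5, from 60 UMIs. *Epgn* was highest in cluster 9 with 5.61 CPM from only 4 UMIs, followed by cluster 7 with 4.005 CPM from 45 UMIs, and stood at 0.213 CPM in cluster 11. *Hbegf* varied less across ML, from 27.2 CPM in cluster 11 and 28.1 CPM in cluster 9 to 60.0 CPM in cluster 7. Cluster 11, which made up 2863 WT and 670 V943R cells, thus combined the lowest ML levels of *Areg*, *Btc* and *Epgn* with the highest level of *Nrg4* in the WT sample. For *Nrg4* the first place was not separated from cluster 9.

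Of 9714 genes with 1000 or more UMIs, those most like each ligand over the 11 WT cluster means were sought by Pearson's r of log2(CPM + 1), which is given as a description since the clusters share libraries and depth. For *Areg* these were *Id3*, *G6pdx*, *Alox15*, *Krt7* and *Atp13a3*, with r from 0.98 to 0.99. For *Nrg4* they were *Cdh13*, *Hp*, *Cfap126*, *Cd164l2* and *Qtrt1* (0.98 to 0.99), and for *Hbegf* they were *Hilpda*, *Zyx*, *Capg*, *Klf11* and *Papln* (0.93 to 0.98). *Btc* was most like *Htra3*, *Trp53i11*, *Wdfy1*, *Nipal1* and *Foxq1* (0.91 to 0.95), and *Tgfa* was most like *Arfgef3*, *Ccdc88c*, *Ydjc*, *Fam69b* and *Ralgps2* (0.90 to 0.94). Between ligands, r was 0.83 for *Areg* and *Nrg4* and −0.69 for *Areg* and *Hbegf*.

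*Areg* varied widely from cell to cell. WT ML cells held a median of 9 *Areg* UMIs, with 0 at the 10th and 38 at the 90th percentile and 147 at most, and V943R ML cells held a median of 16, with 1, 49 and 240. At 1000 UMIs per cell the medians were 2 and 3, and the share of cells without any *Areg* UMI was 29.1% in WT and 18.8% in V943R. In cluster 11, 52.9% of WT and 46.8% of V943R cells had no *Areg* UMI at this depth, against 15.5% and 15.1% in cluster 10. At 1000 UMIs, 90.8% of WT and 89.8% of V943R ML cells had no ligand other than *Areg*. Without thinning these shares were 72.2% and 66.9%, so detection of other ligands depended on depth. At 1000 UMIs, 6.98% of WT and 9.03% of V943R ML cells had 2 or more different ligands, and 66.3% and 73.4% had exactly 1.

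The comparison of the genotypes asks whether luminal cells with mutant ERBB3 carry different amounts of ligand mRNA. The targeted gene itself stood at 60.9 and 63.3 CPM in the WT libraries and 29.8 and 30.8 CPM in the V943R libraries, and the UMIs do not show which codon a transcript carried. *Erbb3* was lower in V943R in LP, LI and ML cells, with log2 ratios of −0.87, −0.90 and −1.11. *Erbb2* was at 41.3 CPM in both genotypes, with a log2 ratio of 0.00 (−0.08 to 0.08). A gene was called higher or lower where its level differed 1.5-fold or more, the genotype with more had at least 50 UMIs, and both V943R libraries lay beyond both WT libraries.

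Over all cells, 6 ligands had enough UMIs for this rule, and 1 of them, *Epgn*, was higher in V943R and none was lower. Of all 16450 genes that could be called, 3.23% were higher and 1.17% lower. The change of *Epgn* was 2.81-fold (log2 1.49, 1.20 to 1.78), from 142 WT and 341 V943R UMIs. Without any requirement of fold, both V943R libraries lay above both WT libraries for 4 of the 6 ligands, *Areg*, *Btc*, *Tgfa* and *Epgn*, against 31.8% of all genes, and below for 1, *Hbegf*, against 22.5%. The median log2 ratio was 0.21 over the 6 ligands and 0.02 over all genes that could be called.

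In LP cells 3 ligands and in LI cells 5 ligands had enough UMIs, and none was called in either direction. *Epgn* was under the minimum in both classes, with both V943R libraries above both WT libraries. It had 3 and 11 UMIs in LP cells (log2 1.85, −0.07 to 4.33) and 7 and 28 in LI cells (log2 1.93, 0.70 to 3.37). The shares of all genes called were 2.23% higher and 0.606% lower in LP and 2.83% and 1.03% in LI. In ML cells 1 of 6 ligands was higher, again *Epgn*, and none was lower, with 2.86% of all genes called higher and 1.57% lower. The median log2 ratio of the ligands was 0.11 in LP, 0.09 in LI and 0.25 in ML, against 0.02, 0.00 and 0.00 over all genes. In ML cells, both V943R libraries lay above both WT libraries for *Areg*, *Btc*, *Tgfa* and *Epgn* (27.6% of all genes) and below for *Hbegf* (26.7% of all genes).

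*Areg* was higher in V943R in every class by less than the fold required. In ML cells the libraries stood at 3673 and 3741 CPM in WT and 4356 and 4635 CPM in V943R, which gives a log2 ratio of 0.28 (0.27 to 0.29), or 1.21-fold. The WT libraries differed less from each other than from either V943R library. In LP cells the libraries stood at 316 and 368 against 429 and 440 CPM (log2 0.34, 0.27 to 0.41), and in LI cells at 2515 and 2325 against 3049 and 3044 CPM (log2 0.33, 0.30 to 0.36). The share of LP cells with an *Areg* UMI at equal depth was 15.2% in WT and 18.9% in V943R. It was not above the 22.2% and 25.5% of clusters 12 and 13. Cells of high doublet score held part of the *Areg* UMIs of LP, and the part of free RNA in the LP ratio was not tested. At equal depth an *Areg* UMI was found in 70.9% of WT ML cells (70.2% to 71.7%) and 81.2% of V943R ML cells (80.4% to 82.0%). Cluster 11, a smaller part of the ML cells in V943R, had lower shares of 47.1% in WT and 53.2% in V943R. The part of the makeup of the class in the difference between the ML shares was not tested. Outside the luminal classes, cluster 12 stood at 1007 CPM in WT and 172 CPM in V943R, from 113 UMIs in 43 cells and 12 UMIs in 33 cells. This fold of 0.171 met the rule for a lower level, but it rested on few cells, and the share of all genes called in cluster 12 was not taken. Single cells held 23 of the 33 UMIs of WT library A and 45 of the 80 of WT library B. No V943R cell of this cluster held more than 2. Without thinning, 67.4% of WT and 69.7% of V943R cells of cluster 12 had no *Areg* UMI. Cluster 13 stood at 1229 and 1270 CPM (log2 0.05, −0.18 to 0.28) with overlapping libraries.

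*Areg* was the only ligand with 50 UMIs in each of clusters 1 to 11, and its 2 V943R libraries lay above its 2 WT libraries in all 11. The same was true of 1.5% of the 2274 genes with 50 UMIs in each cluster (34 genes). The clusters were cut from the same libraries, so the 11 are not separate observations. Most of these genes had far fewer UMIs than *Areg*, and the share among genes as abundant as *Areg* was not taken. The log2 ratio ranged from 0.06 in cluster 10, where the libraries stood at 5079 and 5291 CPM in WT and 5337 and 5441 CPM in V943R, to 0.53 in cluster 9, where they stood at 3816 and 4571 against 5998 and 5869 CPM. In the cluster with the highest WT level the genotypes were thus closest, and in cluster 11, with the lowest ML level, the ratio was also small at 0.09 (0.04 to 0.13). Clusters 1 and 2 hold the LP cells, where the part of free RNA in the *Areg* ratio was not tested.

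**Figure D4:**
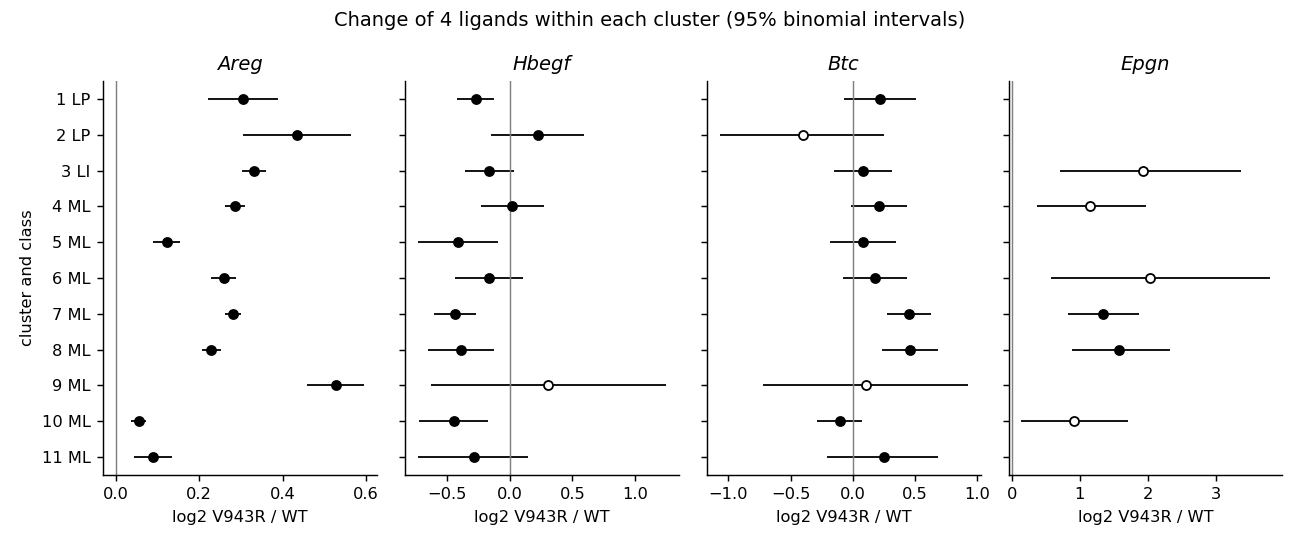
log2 ratio of V943R over WT (horizontal axes, each on its own scale, grey line at 0) of 4 ligands in clusters 1 to 11 (vertical axis) with 95% binomial intervals. Filled points have 50 or more UMIs in the genotype with more, open points 20 to 49, and values from fewer UMIs are not drawn. Areg lies above 0 in all 11 clusters and Epgn in each cluster drawn, while Hbegf lies below 0 in 8 of the 11.

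*Epgn*, a low-affinity EGFR ligand, was the member with the largest ratio. In ML cells it had 39 and 93 UMIs in WT and 120 and 182 in V943R, which is 1.44 and 3.14 against 5.47 and 7.67 CPM. The groups did not overlap, but the WT libraries differed 2.19-fold from each other, and the log2 ratio of single V943R to single WT libraries ranged from 0.80 to 2.42. The ratio of the pools was 2.84-fold (log2 1.51, 1.21 to 1.81), and log2 2.20 without WT library B. Most of these UMIs came from cluster 7, with 1.75 and 5.91 against 7.33 and 12.5 CPM, and cluster 8, with 1.37 and 5.63 against 12.4 and 7.46 CPM. At equal depth *Epgn* was found in 0.212% of WT ML cells (0.143% to 0.302%) and 0.619% of V943R ML cells (0.471% to 0.797%).

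*Btc* and *Tgfa*, of which betacellulin also binds ERBB4, were higher in V943R ML cells by less than 1.5-fold. *Btc* stood at 40.8 and 41.6 CPM in WT ML cells and at 47.2 and 54.6 CPM in V943R ML cells (log2 0.31, 0.22 to 0.39), and in LP cells its libraries overlapped. Among clusters its ratio was largest in 8, at 0.46 (0.23 to 0.69), and 7, at 0.45 (0.28 to 0.63). It was −0.11 (−0.29 to 0.08) in cluster 10, among the highest in WT *Btc*, where the libraries overlapped, and −0.40 (−1.07 to 0.25) in cluster 2, where both V943R libraries lay below from 47 and 36 UMIs. *Tgfa* stood at 8.36 and 9.04 against 10.6 and 9.69 CPM in ML cells (log2 0.22, 0.03 to 0.40). In cluster 5, where its WT level was highest, both V943R libraries lay below the WT libraries (log2 −0.23, −0.82 to 0.35). *Nrg4* did not separate the genotypes in ML cells, with 14.8 and 17.1 against 15.2 and 16.4 CPM (log2 −0.02, −0.16 to 0.12).

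*Hbegf* was the ligand with lower levels in V943R. In ML cells it stood at 41.3 and 39.9 CPM in WT and 35.2 and 34.7 CPM in V943R (log2 −0.22, −0.31 to −0.12), without overlap. In LP cells, where its level was highest, the libraries stood at 102 and 114 against 82.3 and 105 CPM and overlapped. In cluster 1, which holds most LP cells, they did not overlap, with 124 CPM in WT and 103 CPM in V943R (log2 −0.27, −0.42 to −0.12). In cluster 2, the other LP cluster, it stood at 57.9 CPM in WT and 67.6 CPM in V943R (log2 0.22, −0.15 to 0.59), with overlapping libraries.

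Within cluster 11, the ML cluster that was smaller in V943R, 5 ligands could be called and 1, *Tgfa*, met the rule for a higher level, with 7.60 and 9.53 CPM in the WT libraries and 16.7 and 10.5 CPM in the V943R libraries. Its log2 ratio of 0.63 came from 81 and 32 UMIs and its interval of −0.01 to 1.23 included 0. Without WT library A or V943R library A it no longer met the rule. Of all genes in this cluster 2.7% were called higher and 3.17% lower. *Nrg4*, which had its highest WT level in this cluster, stood at 24.1 and 30.0 CPM in WT and 39.0 and 36.8 CPM in V943R (log2 0.47, 0.11 to 0.82). The median log2 ratio of the 5 ligands was 0.25, against 0.03 over all genes.

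Because cluster 11 was a smaller part of the V943R ML cells and had its own ligand levels, the ML ratios were also taken with the cluster shares fixed at those of WT. *Areg* then changed from 0.28 to 0.19 and *Btc* from 0.31 to 0.21, and *Hbegf* from −0.22 to −0.31. *Nrg4* went from −0.02 to 0.20, and without cluster 11 it was 0.08. *Epgn* stood at 1.33 and *Tgfa* at 0.26. The 5 ligands other than *Nrg4* kept the sign of their ratio with fixed shares and without cluster 11. The percentages of ML cells with or without a ligand UMI were not taken at a fixed makeup.

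**Figure D5:**
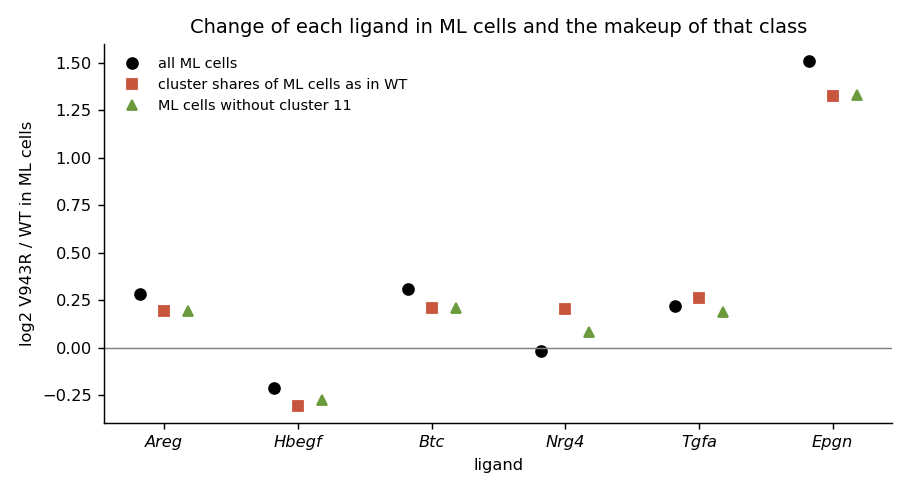
log2 ratio of V943R over WT in ML cells (vertical axis, grey line at 0) for the 6 measured ligands, over all ML cells (circles), with the cluster shares of ML cells set to those of WT (squares) and without cluster 11 (triangles). The ratio of Areg moved from 0.28 to 0.19 and that of Nrg4 from −0.02 to 0.20.

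The genes next to the ligands on chromosome 5 did not all move with them. In ML cells *Mthfd2l*, beside *Epgn*, had a log2 ratio of 0.02 (−0.06 to 0.11), the lincRNA *Gm19619*, between *Areg* and *Btc*, had 0.15 (−0.22 to 0.52), and *Parm1*, beyond *Btc*, had −0.28 (−0.46 to −0.10). The chemokine genes *Cxcl1* and *Cxcl2* before *Mthfd2l* had 0.19 and −0.27.

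Genes that release, dampen or control the ligands were read from lists, for ML cells, where 2.86% of all genes were called higher and 1.57% lower. The median log2 ratio was 0.10 over the measurable genes for ligand release, 0.08 over those that dampen or turn over the receptors and −0.12 over those of hormone response, against 0.00 over all genes. In ML cells none of the 7 measurable genes among 10 for ligand release was called in either direction. The most abundant of them were *Adam10* with a log2 ratio of 0.09, *Adam15* with 0.11 and *Rhbdf1*, which encodes a carrier of ADAM17, with 0.00, while *Adam17* itself had 0.10 (−0.04 to 0.25). Of the 11 genes that dampen or turn over ErbB receptors, 10 were measurable and 1 was higher, *Spry1*, an inhibitor of receptor tyrosine kinase signals, with 7.55 and 8.30 CPM in WT and 13.95 and 15.0 CPM in V943R (log2 0.87, 0.70 to 1.05). *Errfi1*, *Dusp4* and *Dusp6*, the last of which is a feedback phosphatase of ERK, had 0.16, −0.05 and −0.42. Of the 9 genes of hormone response, 8 were measurable and 1 was higher, against the direction of the list's median, *Greb1*, a target of the estrogen receptor, with 3.98 and 3.37 against 5.75 and 6.03 CPM (log2 0.69, 0.42 to 0.95). *Gata3* had 0.12, *Prlr* −0.12, *Cited1*, a coactivator that acts in the estrogen control of *Areg*, −0.45, *Esr1* −0.13 and *Pgr* 0.11.

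Other measures moved with the genotype beside these ligands. The 10 genes of dissociation stress summed to 19819 and 20577 CPM in WT ML cells and 16359 and 17111 CPM in V943R ML cells, with a median log2 ratio of −0.25. None of them met the rule there, and *Fos*, *Jun* and *Junb* had −0.24, −0.29 and −0.35. The 5 fibroblast markers summed to 15.0 and 13.8 CPM in WT ML cells and 5.43 and 4.38 in V943R, of which *Dcn* made up 13.6 and 3.94 CPM and *Pdgfra* 1 and 3 UMIs. The 6 immune markers summed to 3.43 and 4.76 against 7.84 and 5.27 CPM, with *Cd74* higher in V943R and *Ptprc* at 1 UMI in each genotype. The 7 basal markers summed to 16.3 and 18.6 against 15.2 and 14.3 CPM. The 5 ML markers summed to 3850 and 4028 CPM in WT ML cells and 3243 and 3495 CPM in V943R ML cells (median −0.12). In LI cells they summed to 2860 and 2970 against 2425 and 2678 CPM, and in LP cells to 593 and 586 against 456 and 525 CPM. None of them was called. Of the 6 LP markers 1 was called lower in ML cells, where 1.57% of all genes were. In LI cells, where *Areg* was higher as well, the 6 LP markers summed to 1287 and 1411 CPM in WT and 1033 and 1101 CPM in V943R, with a median log2 ratio of −0.30 and 1 called lower. Of the 4 proliferation markers 3 were measurable there and 2 were called higher (median 0.66). Of the 7 basal markers 3 were measurable in LI cells and 1 was called higher (median −0.07). The stress genes had a median of −0.38 in LI cells. In LP cells the LP markers summed to 4185 and 4533 against 3901 and 4017 CPM (median −0.10, 1 called lower), and the stress genes had a median of −0.26. Against these medians 1 stress gene, *Hspa1b*, was called higher in LP cells (log2 0.60) and in LI cells (log2 0.74). Of all genes, 2.23% were called higher and 0.606% lower in LP cells, and 2.83% and 1.03% in LI cells. The median depth of ML cells was 3508 UMIs in WT and 4070 in V943R. The part of these measures in the ligand results was not tested.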

How the data were processed

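Sorted luminal mammary cells of 2 genotypes were measured by droplet single cell RNA-sequencing. The authors deposited 1 table of signal values, which are UMIs scaled by a factor of each cell, with the library, genotype, cluster and luminal class of every cell. The clusters came from Partek Flow (Seurat, resolution 0.6). The submitters' processing notes name bcl2fastq 2.20, CASAVA 1.8, GSNAP and GRCm38. The filters on cells are not given in the sources used here.

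UMIs were recovered from the deposited signal with the lowest nonzero value per cell as the unit, and 100% of values were whole within 0.02. These were summed over the cells of each library, class or cluster and expressed as CPM. No cell was left out, and no count model was fitted. The rule for a call is given in the text and was tested on simulated data that varied by counting error only. That test therefore does not cover differences between libraries or between pools of mice. Shares of cells were taken after thinning each cell to 1000 UMIs, which left out 45 WT and 252 V943R cells. Doublets were scored with scrublet through scanpy 1.11.5. Python 3.11.15, numpy 2.4.6, pandas 2.3.3, scipy 1.17.1 and matplotlib 3.10.9 were used with a seed of 1.

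All 10 ligands were named, with the 4 receptors, and of the lists for ligand release, feedback, hormone response and stress the 3 genes with the most UMIs and every gene called in the comparisons described. Some further genes, such as *Adam17*, *Esr1*, *Pgr* and single cell type markers, were chosen after their values were seen, and marker lists are otherwise given by sums, medians and counts. The ligands and the lists were chosen with earlier results of these data known. As alternatives, the ratios were taken without each library, ratios were shifted to a median of 0, the 50 most abundant genes were left out of the denominator, means were taken over cells, minimums of 20 and 100 UMIs were set, libraries were ignored in the rule, the shallowest 10% of cells or the top 6% by doublet score were dropped, and thinning to 2000 UMIs or none and other makeups of ML cells were tried.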

Additional observations from a re-analysis of the deposited data

How the results depend on the processing

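The direction of *Areg*, *Hbegf*, *Btc*, *Tgfa* and *Epgn* over all cells and in ML cells was kept under every alternative run. For these ligands both V943R libraries lay beyond both WT libraries, so leaving out a library could not reverse the direction. Over all cells the log2 ratio ranged from 0.20 to 0.27 for *Areg* and from −0.24 to −0.06 for *Hbegf*. For *Epgn* it ranged from 1.08 without WT library A to 2.12 without WT library B, so WT library B sets its size by more than 1.5-fold. *Nrg4* in ML cells kept its sign in 7 of 11 alternatives. In LI cells *Hbegf*, *Tgfa* and *Nrg4* kept theirs in 7, 8 and 6 of 9, in LP cells *Btc* did in 7 of 9, and *Btc* in LI cells went from 0.09 to 0.50 without the cells of highest doublet scores. With means over cells, *Areg* stood at 2862 CPM in WT and 3418 in V943R, and without the 10% of cells with the fewest UMIs at 3240 in WT. With a minimum of 20 UMIs, *Nrg4* was called higher in LP, from 11 WT and 20 V943R UMIs, and *Epgn* in LI, from 7 and 28 UMIs. The shares of all genes called were not taken for the alternatives. In cluster 11 the count of ligands called higher was 0 with means over cells and 0 with a minimum of 100 UMIs, and 0 to 1 when a library was left out. Of the pathway genes in ML cells, 1 to 2 were higher when a library was left out, with 1 without WT library B. The log2 ratio of ML over LP in WT was 4.02, 0.55, 4.40 and 1.52 for *Areg*, *Btc*, *Nrg4* and *Tgfa* with means over cells. Without the cells of highest doublet scores it was 4.10 for *Areg*, 0.65 for *Btc* and 4.14 for *Nrg4*, so doublet-scored cells hold part of the *Areg* UMIs of LP. The share of ML cells with 2 or more ligands was 14.1% in WT and 17.1% in V943R at 2000 UMIs per cell, and 25.1% and 31.8% without thinning. No paired analysis was possible because the table ties no cell to a numbered replicate and no test could be made between 2 pools. Depth limits the values of *Epgn*, *Tgfa* and *Nrg4* within clusters, where most counts were under 100 UMIs.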
